A study of Mus musculus with 48 samples.

Results

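Nqo1, Gclc, Gclm, Gsta4, Gstm1, Gstm3, Txnrd1, Srxn1, Hmox1 and Gss are targets of the transcription factor NRF2 or make and use glutathione. They were taken as listed genes, each as the probe set with a single gene symbol and the highest mean over all arrays. All 10 were found among the 22180 genes of the table, each with 1 such probe set, and all 10 lay above the filter on low values that left 16926 genes for testing. The question was whether these antioxidant genes follow the supply of sulfur amino acids.

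Livers of 48 mice were measured, 1 array for each mouse. The mice ate 1 of 25 diets freely from 3 weeks of age until they were culled at 15 months, and 20 combinations of composition and energy level, with 1 to 4 mice each, are analysed here. Protein gave 5% of energy for 10 mice, 14% for 9, 23% for 9, 33% for 9, 42% for 5 and 60% for 6, with the rest shared by carbohydrate and fat, and diets are written below as protein/carbohydrate/fat. The labels call the energy level High in 29 mice, Medium in 14 and Low in 5. The 10 mice on 5% protein all belong to the High energy diets. The study used mice of both sexes, and the labels used here give neither the sex or strain of a mouse nor the methionine or cysteine content of a diet. The protein share was therefore the only measure of sulfur amino acid supply, and it cannot be told apart from the supply of other amino acids. Sex-linked genes on the arrays differed widely between mice: the mean of 3 Y-linked genes minus Xist ran from -8.49 to 4.88. The main models had no term for sex, and this difference entered 1 of the alternatives.

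NRF2, encoded by Nfe2l2, is held in the cytoplasm and sent for degradation by KEAP1. When electrophiles or oxidants modify KEAP1, NRF2 accumulates, pairs with a small MAF protein and binds antioxidant response elements near its target genes. Glutathione is a tripeptide whose cysteine comes from the diet or, in the liver, from methionine through transsulfuration. Cysteine is commonly the limiting building block of glutathione, and the liver is a main site of its synthesis.

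The core of the antioxidant response element, TGACNNNGC, was searched on both strands from 250 bases before to 50 bases after the annotated starts (RefSeq, GRCm38.p6). Of the 10 genes, 7 had such a window, and 3 of these 7 held the core, against 13.991% of 27025 genes. All matches in the 10 genes are shown, and capitals mark the core. They lie in a glutathione synthesis gene and in members of the thioredoxin and peroxiredoxin systems. In each it lies on the strand opposite to the gene, so the letters read GCNNNGTCA.
Gclm, chr3:122245398-122245456, plus strand, core at -134 to -126 from the start: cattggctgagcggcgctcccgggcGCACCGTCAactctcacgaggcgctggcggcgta
Txnrd1, chr10:82859089-82859147, plus strand, core at -92 to -84 of 1 of its 3 starts: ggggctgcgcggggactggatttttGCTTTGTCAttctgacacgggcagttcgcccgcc
Srxn1, chr2:152105542-152105570, plus strand, core at 29 to 37 after the start: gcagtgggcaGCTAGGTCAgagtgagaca
A match is a description of these letters and not a binding site. Gclc, Gsta4 and Hmox1 had no window.

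The arrays read as liver. The hepatocyte genes Alb, Ttr, Tat, Cps1, Apoa1 and Serpina1a averaged 12.90, 12.83, 12.06, 11.94, 11.61 and 8.32 on the log2 scale. The bile duct genes Sox9, Epcam, Krt19 and Krt7 averaged 5.13, 2.83, 2.34 and 1.71. In whole tissue, fewer cells of a type and less RNA per cell cannot be told apart. The spread of values within an array moved with the diet: its interquartile range was 3.48 ± 0.13 (SD, n = 10) at 5% protein and 3.16 ± 0.20 (SD, n = 6) at 60%. The only Medium energy 14/29/57 mouse stood apart from the rest, with 11.6% of all tested genes at their lowest and 15.7% at their highest in it. Protein slopes are therefore also given with the interquartile range as a term of the model, and without that mouse where it changed a call.

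None of the 10 genes passed the test for the protein share. The protein slope, fitted with limma to every gene, is the log2 change when protein gains 10 points of energy and carbohydrate and fat lose equal amounts. At an adjusted p of 0.05, 0 of the 10 genes were called, against 7.01% of all genes, and at an unadjusted p of 0.05, 1 was (Gsta4), against 26.6%. The slope was negative in 9 of the 10 and positive in Gsta4. Their median was -0.06, against -0.0019 for all genes, of which 48.8% had a positive slope. Most markers of other liver cells also had negative slopes. Stellate cell genes were negative in 6 of 6 (median -0.10, 1 called) and macrophage genes in 7 of 7 (median -0.12, none called). Endothelial genes were negative in 4 of 5 (median -0.06, none called) and lymphocyte genes in 4 of 4 (median -0.09, none called). Bile duct genes were split, with 2 of 4 positive (median -0.02, none called). Hepatocyte genes were positive in 4 of 6 (median 0.02, 1 called as rising). The summed stellate genes ran from 10.33 to 11.18 at 5% protein and from 9.98 to 10.57 at 60% on the log2 scale, and the summed macrophage genes from 8.46 to 10.38 and from 8.78 to 9.76. The part of these cells in the members' slopes was not tested. An F test over the 6 protein shares called none of the 10, against 2.65% of all genes. Before adjustment it passed for Gstm1 alone, against 20.1% of all genes. For each of the 10 genes the ranges at any pair of protein shares overlapped.

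**Figure D1:**
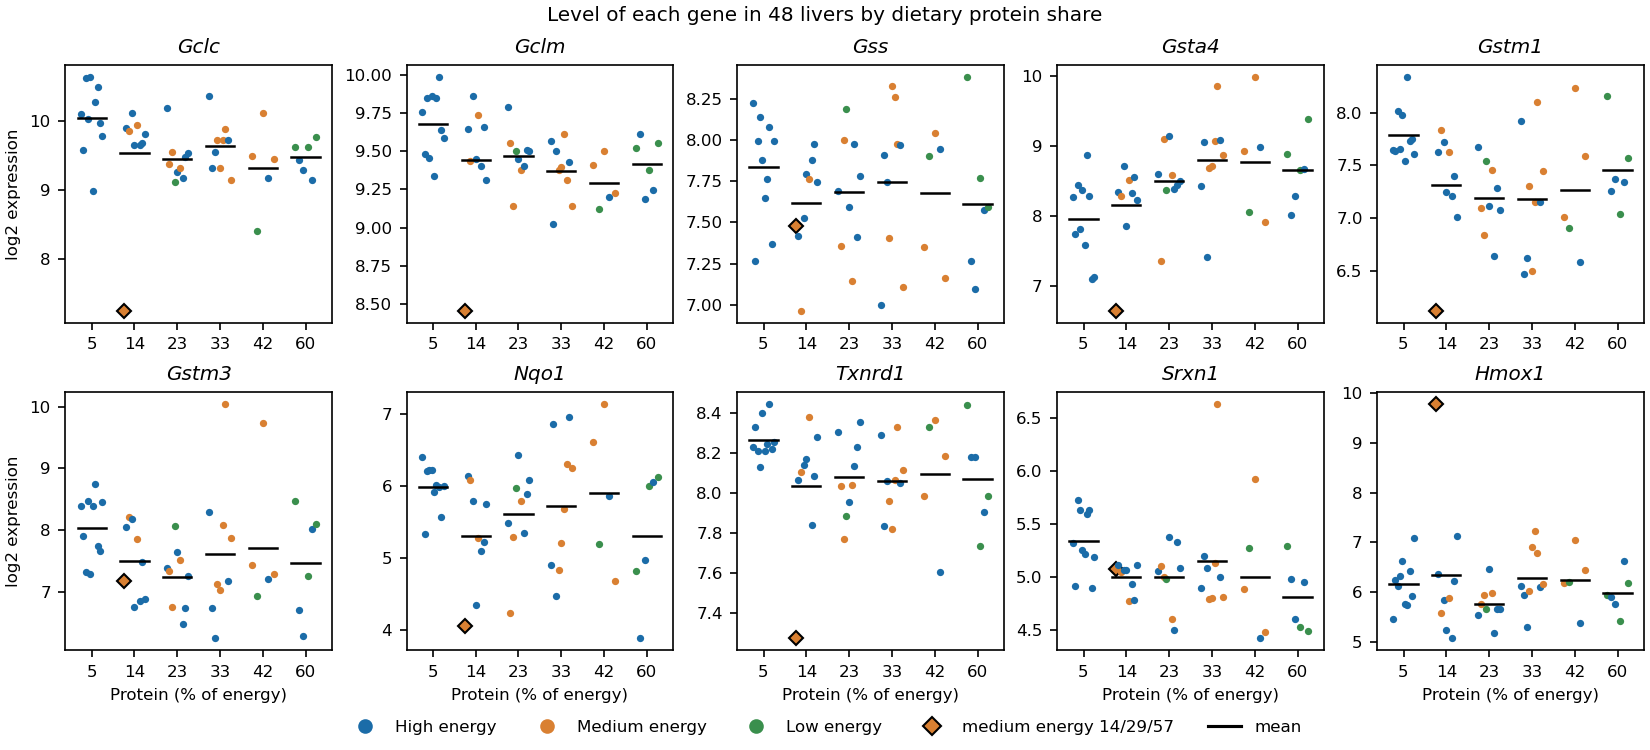
Each panel plots the log2 level of 1 gene in 48 livers (points, coloured by energy level) against the percentage of energy from protein, with a line at the mean of each share. The mean of Gsta4 runs from 7.97 at 5% to 8.65 at 60%, that of Gclc from 10.05 to 9.48, and the Medium energy 14/29/57 mouse (diamond) is the lowest of all for 5 genes and the highest for Hmox1.

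The genes of glutathione synthesis were highest on average at 5% protein. Gclc encodes the catalytic subunit of glutamate-cysteine ligase, which joins glutamate to cysteine in the first and rate-limiting step. Its lowest, median and highest log2 levels were 8.98, 10.06 and 10.64 at 5%, 7.24, 9.82 and 10.12 at 14%, 9.12, 9.38 and 10.19 at 23%, and 9.15, 9.72 and 10.36 at 33%. At 42% the 5 mice had 8.40, 9.17, 9.45, 9.49 and 10.12, and at 60% the values were 9.15, 9.53 and 9.77. The mean of 10.05 ± 0.51 (SD, n = 10) at 5% was the highest, followed by 33%, 14%, 60%, 23% and 42%, and each step in that order was smaller than the SD of the higher share. The slope of Gclc was -0.06 ± 0.05 (SE; adjusted p = 0.451).

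Within the High energy diets Gclc fell with protein, the only 1 of 17 alternative settings in which it was called. The interquartile range was not added as a term in this subset. There its medians were 10.06 at 5% (n = 10), 9.75 at 14% (n = 6), 9.48 at 23% (n = 5) and 9.63 at 33% (n = 4), with 9.17 in the only mouse at 42% and 9.15, 9.30 and 9.44 at 60%. The 60% mice lay below 9 of the 10 mice at 5% and above the lowest, at 8.98. In these 29 mice the slope was -0.15 ± 0.04 (SE; adjusted p = 0.0345), the only call among the 10 genes there, against 4.71% of all genes. At an unadjusted p of 0.05, 7 of the 10 passed in these mice, against 24.7% of all genes. This subset leaves out the Medium energy 14/29/57 mouse; with all energy levels and without that mouse the slope of Gclc was -0.10 (adjusted p = 0.0933). Within 5% protein, both mice on 5/20/75 (10.62 and 10.64) lay above all mice on 5/48/48 (9.79 to 10.50) and on 5/75/20 (8.98 to 10.28). The share of all genes split in this way was not counted. At 33% and High energy the groups overlapped, with 9.32 and 9.72 on 33/20/47 and 9.55 and 10.36 on 33/47/20. Over all mice, 10 points of energy moved from fat to carbohydrate changed Gclc by -0.02 ± 0.06 (SE; adjusted p = 0.999).

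Gclm encodes the modifier subunit of the same ligase, which lowers its sensitivity to inhibition by glutathione. Its lowest, median and highest levels were 9.34, 9.70 and 9.99 at 5% protein, 8.45, 9.45 and 9.86 at 14%, 9.14, 9.50 and 9.79 at 23%, 9.02, 9.40 and 9.61 at 33%, and 9.19, 9.45 and 9.61 at 60%. The mice at 42% had 9.12, 9.20, 9.23, 9.41 and 9.50. The 5% share was again the highest, with a mean of 9.68 ± 0.21 (SD, n = 10), and the means of the other shares lay between 9.29 and 9.47. The slope was -0.05 ± 0.02 (SE; adjusted p = 0.216). Without the Medium energy 14/29/57 mouse, whose level was the lowest of all, Gclm fell by 0.06 for 10 points (adjusted p = 0.0473), the only call among the 10 genes there, against 7.62% of all genes. With all mice and the interquartile range as a term its slope was -0.04 ± 0.03 (SE; adjusted p = 0.656).

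Gss encodes glutathione synthetase, which adds glycine in the last step. Its medians lay between 7.58 at 60% and 7.94 at 5%, within a range over all mice of 6.96 to 8.39. The slope was -0.06 ± 0.03 (SE; adjusted p = 0.237). With the interquartile range of the array as a term it was -0.10 ± 0.03 (SE; adjusted p = 0.178), so the negative slope of Gss was not smaller there.

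Of the 3 glutathione transferases, none passed the test; the slope was positive in Gsta4 and negative in Gstm1 and Gstm3. Gsta4 encodes an alpha-class transferase that acts on 4-hydroxynonenal, an aldehyde from lipid peroxidation. Its lowest, median and highest levels were 7.11, 8.04 and 8.87 at 5% protein, 6.65, 8.32 and 8.72 at 14%, 7.35, 8.50 and 9.15 at 23%, 7.41, 8.87 and 9.86 at 33%, and 8.01, 8.67 and 9.38 at 60%. The mice at 42% had 7.92, 8.06, 8.93, 8.98 and 9.98. The means ran in the order 5%, 14%, 23%, 60%, 42% and 33%, from 7.97 ± 0.58 (SD, n = 10) to 8.80 ± 0.65 (SD, n = 9), with every neighbour closer than the SD within it.

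The slope of Gsta4, 0.15 ± 0.06 (SE), was the only positive one of the 10 and had an adjusted p of 0.0832 (unadjusted p = 0.00979). On the scale of log2 protein it rose by 0.25 for each doubling (adjusted p = 0.0271), the only call among the 10 genes, against 21.6% of all genes. It also passed without the first High energy 60/20/20 mouse (0.19, adjusted p = 0.0334) and without the second (0.18, adjusted p = 0.0377). With the interquartile range as a term the slope was 0.10 ± 0.06 (SE; adjusted p = 0.631), and Gsta4 was lower in arrays with a wider range (Pearson r = -0.45, adjusted permutation p = 0.0072, Spearman rho = -0.53, adjusted permutation p = 0.0011, 48 mice). That r was -0.41 without the 2 arrays farthest from the median, -0.52 in the 34 mice numbered under 300 and -0.20 in the 14 numbered over 300.

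Gstm1 and Gstm3 encode mu-class transferases, which join glutathione to a wide range of electrophiles. Gstm1 had a lowest, median and highest level of 7.54, 7.70 and 8.34 at 5% protein, 6.11, 7.40 and 7.83 at 14%, 6.64, 7.11 and 7.67 at 23%, 6.47, 7.15 and 8.10 at 33%, and 7.03, 7.35 and 8.15 at 60%. At 42% the values were 6.58, 6.90, 7.01, 7.59 and 8.24. The 5% mice were the highest group and the closest to each other, with a mean of 7.79 ± 0.25 (SD, n = 10), and their lowest value lay above the median of every other share. The slope over all shares was -0.07 ± 0.05 (SE; adjusted p = 0.322).

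For Gstm3 the lowest, median and highest levels were 7.29, 8.14 and 8.74 at 5%, 6.75, 7.48 and 8.21 at 14%, 6.48, 7.34 and 8.07 at 23%, 6.24, 7.17 and 10.04 at 33%, and 6.28, 7.63 and 8.47 at 60%. The mice at 42% had 6.93, 7.20, 7.28, 7.43 and 9.73. Both values above 9 came from Medium energy mice, 1 on 33/47/20 and 1 on 42/29/29, which were also the highest mice for Srxn1 (6.63 and 5.93). The slope of Gstm3 was -0.11 ± 0.07 (SE; adjusted p = 0.304).

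Of the genes that handle quinones and protein thiols, Nqo1 had a wide spread and Txnrd1 a narrow one. Nqo1 encodes a quinone reductase that is a standard readout of NRF2 activity. Its lowest, median and highest levels were 5.34, 6.01 and 6.40 at 5% protein, 4.06, 5.27 and 6.14 at 14%, 4.24, 5.79 and 6.43 at 23%, 4.48, 5.68 and 6.95 at 33%, and 3.89, 5.48 and 6.12 at 60%, with 4.68, 5.20, 5.86, 6.61 and 7.13 at 42%. The SD was 0.32 at 5% and at least 0.63 at the other shares, and the mice of any share spanned more than the steps between the means. The slope of Nqo1 was -0.05 ± 0.07 (SE; adjusted p = 0.640), and it turned to 0.01 without the first High energy 60/20/20 mouse (adjusted p = 0.907).

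Txnrd1 encodes the cytosolic thioredoxin reductase. Its levels at 5% ran from 8.13 to 8.45 with a mean of 8.27 ± 0.10 (SD, n = 10), and the means of the other shares lay between 8.04 and 8.10. The slope was -0.02 ± 0.02 (SE; adjusted p = 0.605), with a 95% interval of -0.06 to 0.03. Srxn1 encodes sulfiredoxin, which restores overoxidized peroxiredoxins, and had a mean of 5.34 ± 0.30 (SD, n = 10) at 5% and 4.81 ± 0.32 (SD, n = 6) at 60%, with 5.00 to 5.15 between. Its slope was -0.07 ± 0.04 (SE; adjusted p = 0.228).

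Hmox1, the inducible heme oxygenase that breaks heme down to biliverdin, had no order along the shares. Its medians were 6.18 at 5%, 5.88 at 14%, 5.66 at 23%, 6.12 at 33%, 6.19 at 42% and 5.93 at 60%, and its slope was -0.05 ± 0.06 (SE; adjusted p = 0.626). Without the Medium energy 14/29/57 mouse the slope was -0.0019 (adjusted p = 0.984).

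**Figure D2:**
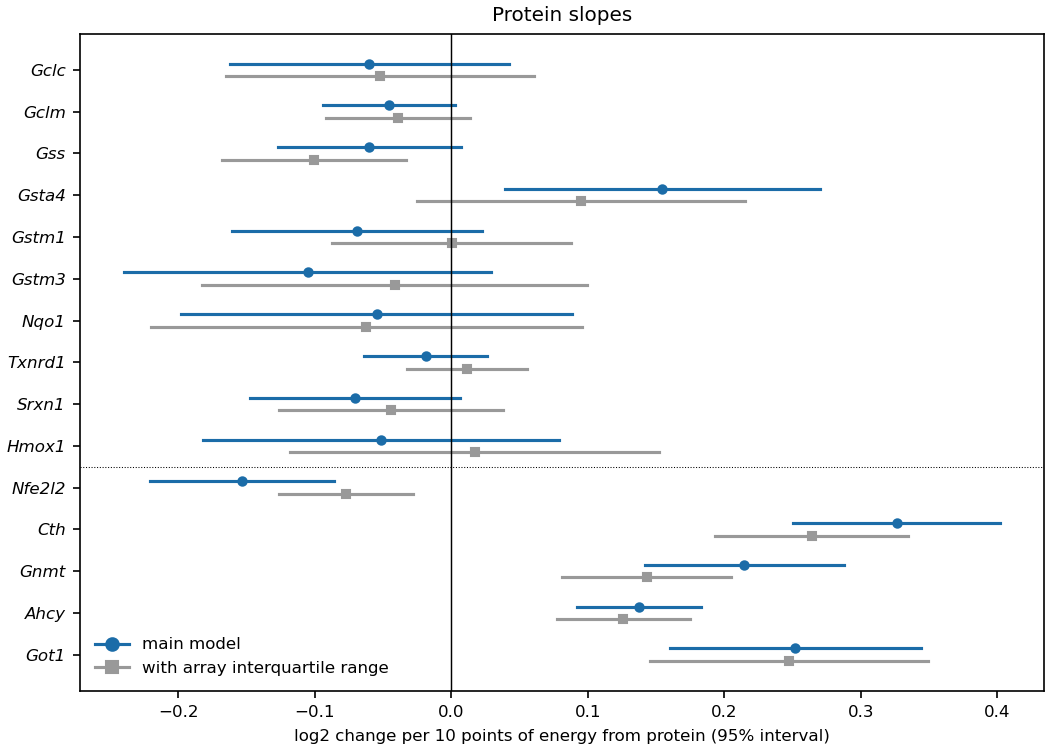
Points give the log2 change when protein gains 10 points of energy, with 95% intervals, in the model of the text (blue) and with the interquartile range of each array added (grey). The intervals of 9 of the 10 genes above the dotted line cross 0 in the first model, Gsta4 (0.15) being the exception, while Cth (0.33), Gnmt (0.21), Ahcy (0.14) and Got1 (0.25) lie to the right of 0 in both.

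At the step between the lowest protein shares, 9 of the 10 genes were higher on average at 5% than at 14% and none passed the test, against 0.372% of all genes called, 0.278% as higher and 0.0945% as lower at 5%; at an unadjusted p of 0.05, 1 of the 10 passed against 12.1%. The median difference was 0.29, against -0.0040 for all genes, with carbohydrate, fat and energy level in the model. The differences were 0.60 ± 0.35 (SE) for Nqo1, 0.59 ± 0.32 (SE) for Gstm3, 0.49 ± 0.21 (SE; unadjusted p = 0.0270, adjusted p = 0.356) for Gstm1 and 0.47 ± 0.25 (SE) for Gclc. Gsta4 was the exception at -0.21 ± 0.29 (SE). The Medium energy 14/29/57 mouse was 1 of the 9 mice at 14%. Without it the difference was 0.28 for Gclc, and 0.12 for Gclm in place of 0.20. The difference of 1 of the 10 genes was then negative. None of the 10 then had an unadjusted p under 0.05, against 2302 of 16926 genes. Stellate and endothelial markers were higher at 5% too, with none called. These were 6 of 6 stellate cell genes (median 0.40) and 5 of 5 endothelial genes (median 0.25). Their summed levels overlapped, from 10.33 to 11.18 at 5% and from 10.09 to 10.92 at 14% for stellate cell genes, and from 9.29 to 10.34 and from 9.20 to 11.23 for endothelial genes. Markers of other cell types were mixed. Higher at 5% were 3 of 7 macrophage genes (median -0.02), 3 of 4 lymphocyte genes (median 0.07) and 2 of 4 bile duct genes (median 0.01). None of these was called. Of the hepatocyte genes, 3 of 6 were higher at 5% (median -0.0085), and 1 was called as lower. The part of these cells in the members' differences was not tested.

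Against the mean of the 5 higher shares, a contrast chosen after seeing the data, Gstm1 was higher at 5% by 0.57 ± 0.18 (SE; adjusted p = 0.0268) and Gstm3 by 0.76 ± 0.27 (SE; adjusted p = 0.0425). These were 2 of the 10 genes, against 17.8% of all genes, so the share of members called was near that of all genes. With the interquartile range as a term the differences were 0.28 (adjusted p = 0.700) and 0.53 (adjusted p = 0.594), and none of the 10 was called, against 0.792% of all genes. Gstm1 was higher in arrays with a wider range (Pearson r = 0.51, adjusted permutation p = 0.0015, Spearman rho = 0.51, adjusted permutation p = 0.0012, 48 mice), with r = 0.44 without the 2 arrays farthest from the median, 0.40 in mice numbered under 300 and 0.74 in those over 300. Txnrd1 was too (Pearson r = 0.46, adjusted permutation p = 0.00513, Spearman rho = 0.48, adjusted permutation p = 0.0036), with r = 0.35 without those 2 arrays and 0.38 and 0.72 in the same subsets. These relations were 3 of 20 computed, for the 10 genes against the interquartile range and against macrophage markers.

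With that term in the model, the protein slopes of Gclc, Gstm3, Nqo1 and Srxn1 were -0.05, -0.04, -0.06 and -0.04 (adjusted p = 0.825, 0.892, 0.854 and 0.777). The slope of Gstm1 was 0.00021 ± 0.04 (SE; adjusted p = 0.999), that of Txnrd1 0.01 ± 0.02 (SE; adjusted p = 0.904) and that of Hmox1 0.02 ± 0.07 (SE; adjusted p = 0.959). The slopes of 6 genes were then negative, and none of the 10 was called, against 0.668% of all genes. Without the 12 arrays of the smallest interquartile range, a subset chosen after seeing the data, none was called either, against 1.97% of all genes. The protein share and the width of the array distribution moved together, so that term also takes up part of the diet.

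Other genes of the pathway gave calls where the 10 did not. The lists in this and the next paragraphs were written with earlier results of these data known. Their counts beside the shares of all genes are therefore a description. Of 34 listed genes of the NRF2 pathway, 28 were tested and 3 fell with protein, against 3.65% of all genes, while none rose; the median slope was -0.04. Nfe2l2, which encodes NRF2 itself, fell by 0.15 ± 0.03 (SE) for 10 points of protein (adjusted p = 0.00437). Its levels ran from 7.67 to 8.42 at 5% and from 6.75 to 7.52 at 60%. The share of all genes whose levels separate at these shares was not counted, and Nfe2l2 was named for its small p for protein. Ephx1, the microsomal epoxide hydrolase, fell by 0.17 ± 0.04 (SE; adjusted p = 0.0126), and Pgd, an enzyme that makes NADPH in the pentose phosphate pathway, fell by 0.15 ± 0.04 (SE; adjusted p = 0.0184). With the interquartile range as a term none of the 28 passed, and the slopes of Nfe2l2, Ephx1 and Pgd were -0.08, -0.14 and -0.13 (adjusted p = 0.149, 0.180 and 0.188). Nfe2l1, a related factor, had a slope of -0.10 ± 0.04 (SE; adjusted p = 0.131).

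Of 19 other glutathione transferases, 15 were tested, and 4 rose with protein, against 3.37% of all genes, while none fell; the median slope was 0.07. Gstk1, a kappa-class transferase of mitochondria and peroxisomes, rose by 0.19 ± 0.03 (SE; adjusted p = 0.00029), from a mean of 9.47 ± 0.36 (SD, n = 10) at 5% to 10.17 ± 0.35 (SD, n = 6) at 60%. The theta-class Gstt3 rose by 0.23 ± 0.06 (SE; adjusted p = 0.0156), the microsomal Mgst1 by 0.07 ± 0.02 (SE; adjusted p = 0.0466) and the mu-class Gstm6 by 0.11 ± 0.03 (SE; adjusted p = 0.0476). With the interquartile range as a term Gstk1 still passed (0.17, adjusted p = 0.00644) and Gstt3, Mgst1 and Gstm6 did not (0.25, 0.05 and 0.06, adjusted p = 0.0599, 0.493 and 0.574). The count of 4 was between 1 and 7 when single mice were left out.

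Of 27 genes of glutathione turnover and peroxidases, 25 were tested, 4 rose, against 3.37% of all genes, and 2 fell, against 3.65%, with a median slope of 0.01. Gpx6, a glutathione peroxidase, rose by 0.55 ± 0.09 (SE; adjusted p = 0.000339) from a mean of 3.18 ± 0.70 (SD, n = 10) at 5% to 5.94 ± 1.71 (SD, n = 6) at 60%, and passed with the interquartile range as a term (0.44, adjusted p = 0.0140). Gpx1, the main cytosolic peroxidase, rose by 0.08 ± 0.02 (SE; adjusted p = 0.0222). The peptidase gene Lap3 rose by 0.09 ± 0.03 (SE; adjusted p = 0.0329), and Ggct, whose enzyme splits gamma-glutamyl dipeptides, fell by 0.13 ± 0.04 (SE; adjusted p = 0.0396). The other 2 calls, Hagh (0.09, adjusted p = 0.0466) and Anpep (-0.19, adjusted p = 0.0444), were named after their values were seen. Of the 6, Gpx6 alone passed with the interquartile range as a term, and Gpx1, Lap3, Ggct, Hagh and Anpep had adjusted p = 0.365, 0.452, 0.258, 0.779 and 0.708. Leaving out single mice gave 2 to 8 calls in this list.

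Of 19 genes of the thioredoxin, peroxiredoxin and superoxide systems, 17 were tested, 2 fell, against 3.65% of all genes, and none rose, against 3.37%, with a median slope of 0.04. Txnip, an inhibitor of thioredoxin, fell by 0.21 ± 0.06 (SE; adjusted p = 0.0211), and Sesn2, a stress-induced sestrin, fell by 0.28 ± 0.08 (SE; adjusted p = 0.0218). Neither passed with the interquartile range as a term (-0.14, adjusted p = 0.330, and -0.08, adjusted p = 0.552). Txn2, the mitochondrial thioredoxin, had a slope of 0.07 ± 0.02 (SE; adjusted p = 0.0568).

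Of 22 genes of methionine and cysteine handling, 21 were tested, 7 rose, against 3.37% of all genes, and 1 fell, against 3.65%, with a median slope of 0.07. Cth, the enzyme that releases cysteine in transsulfuration, rose by 0.33 ± 0.04 (SE; adjusted p = 3.92e-07), from a mean of 9.73 ± 0.42 (SD, n = 10) at 5% to 11.16 ± 0.42 (SD, n = 6) at 60%. Gnmt, which disposes of excess methyl groups, rose by 0.21 ± 0.04 (SE; adjusted p = 0.000241), Ahcy, which splits S-adenosylhomocysteine, by 0.14 ± 0.02 (SE; adjusted p = 0.000153), and the transaminase gene Got1 by 0.25 ± 0.05 (SE; adjusted p = 0.00063). Csad, a taurine synthesis gene named after its value was seen, fell by 0.48 (adjusted p = 0.002). With the interquartile range as a term 5 of the 7 passed, Cth, Gnmt, Ahcy, Got1 and Ethe1, and so did Csad, while Tst and Suox did not (adjusted p = 0.330 and 0.242). The protein slope of Cth had a 95% interval of 0.25 to 0.40, and the interval of Gclc was -0.16 to 0.04.

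Moving 10 points of energy from fat to carbohydrate at a fixed protein share changed none of the 10 genes, against 0% of all genes called; at an unadjusted p of 0.05, 1 of the 10 passed against 3.93%. That gene was Gstm3. At 5% protein its levels were 7.89, 8.38, 8.39 and 8.74 on 5/75/20, 7.66, 7.73, 8.46 and 8.46 on 5/48/48, and 7.29 and 7.32 on 5/20/75. The 2 mice richest in fat thus lay below all others of that share, and the share of all genes split in this way was not counted. At 14% and High energy the levels were 7.48 and 8.18 on 14/57/29 and 6.75, 6.85, 6.88 and 8.05 on 14/29/57. At 33% the groups overlapped: 33/47/20 gave 6.24 and 8.28 at High and 7.87 and 10.04 at Medium energy, and 33/20/47 gave 6.73 and 7.17 at High and 7.02, 7.12 and 8.07 at Medium energy. The slope was 0.22 ± 0.07 (SE; unadjusted p = 0.00503, adjusted p = 0.999). Hmox1 had the largest negative slope of the 10, -0.14 ± 0.07 (SE; unadjusted p = 0.0621).

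**Figure D3:**
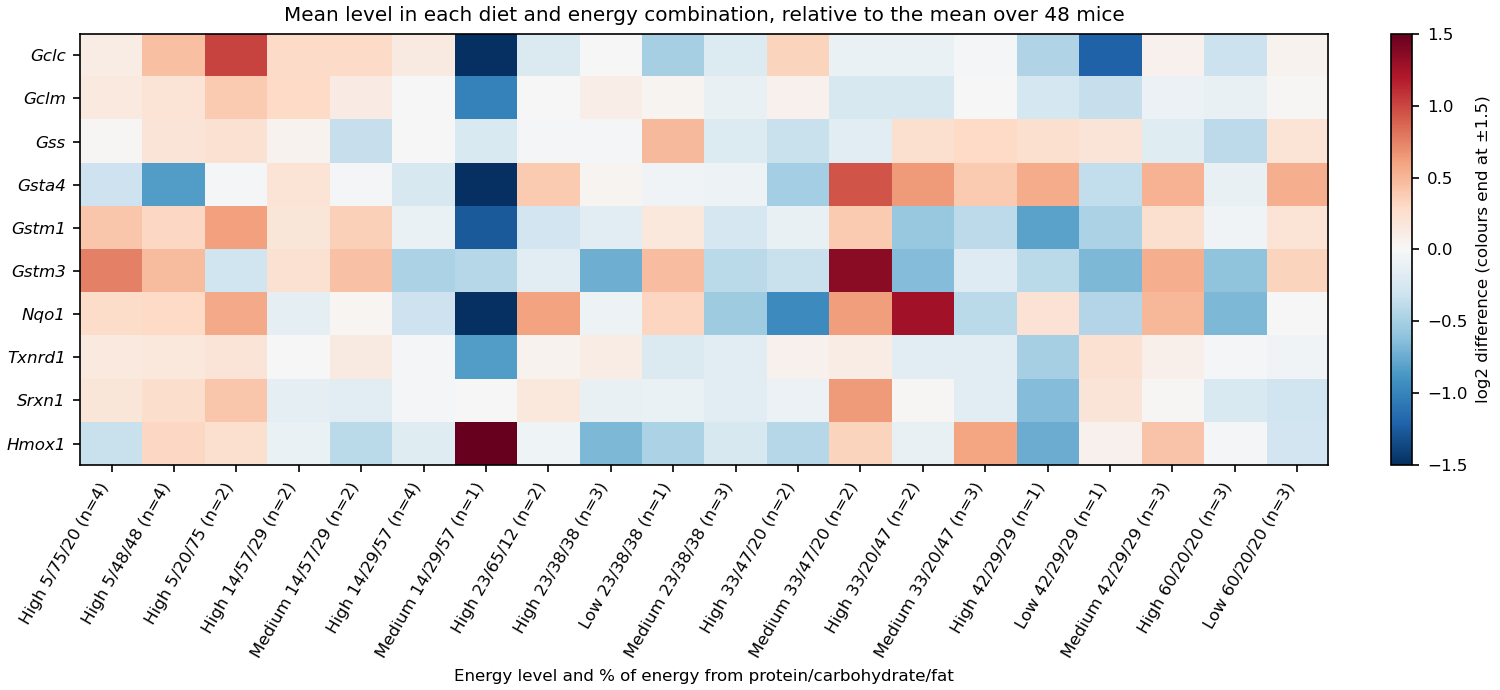
Colours give the mean log2 level of each gene in each of the 20 combinations of energy level and diet, relative to its mean over 48 mice, with the number of mice in brackets and colours ending at 1.5 in either direction. Gstm3 was highest in Medium energy 33/47/20 and Gclc lowest in Medium energy 14/29/57, a combination with 1 mouse.

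Between High and Medium energy none of the 10 genes passed, against 0% of all genes; at an unadjusted p of 0.05, 2 of the 10 passed against 8.13%. Hmox1 had a lowest, median and highest level of 5.07, 5.91 and 7.12 at High energy and 5.58, 6.17 and 9.78 at Medium energy, with 5.42, 5.65, 5.95, 6.18 and 6.19 in the Low energy mice. The groups overlapped over most of their range, and 1 Medium energy mouse lay far above. High minus Medium energy was -0.58 ± 0.23 (SE; unadjusted p = 0.0136, adjusted p = 0.523) for Hmox1, and -0.32 ± 0.17 (SE; adjusted p = 0.999) without that mouse. All 7 macrophage markers were also lower at High energy on average, none past the test, with a median difference of -0.48, and their part in the difference of Hmox1 was not tested. Gstm3 differed by -0.49 ± 0.23 (SE; unadjusted p = 0.0418, adjusted p = 0.596).

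Low and High energy could be set side by side at 60/20/20, with 3 mice each. None of the 10 genes passed, against 0% of all genes, of which 10.1% had an unadjusted p under 0.05. Gclc was 9.15, 9.30 and 9.44 at High and 9.62, 9.62 and 9.77 at Low energy, and Gss was 7.09, 7.27 and 7.58 at High and 7.59, 7.77 and 8.39 at Low energy. In these 2 of the 10 genes Low energy lay above High without overlap, as in 5.61% of all genes. In either direction the groups did not overlap in the same 2 of the 10 genes, against 12.9% of all genes. The differences were 0.38 ± 0.26 (SE; adjusted p = 0.629) for Gclc and 0.60 ± 0.30 (SE; unadjusted p = 0.0521, adjusted p = 0.497) for Gss. Gstm3 and Nqo1 had larger differences, 0.94 ± 0.55 (SE) and 0.67 ± 0.50 (SE), with groups that overlapped.

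The Medium energy 14/29/57 mouse had the lowest level of all 48 for 5 of the 10 genes. Gclc was 7.24 in it and at least 8.40 in the others, and Gclm was 8.45 against at least 9.02. Gsta4 was 6.65 against at least 7.11, Gstm1 6.11 against at least 6.47, and Txnrd1 7.28 against at least 7.61. Hmox1 was the highest of all, at 9.78 against at most 7.23 in the others. The 7 macrophage markers Adgre1, Clec4f, Cd5l, Cd68, Csf1r, Marco and Vsig4 were all at their highest in the same liver, Cd68 at 11.30 against at most 7.27. With 1 mouse in this combination the values describe 1 liver.

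Over all mice, Hmox1 followed the macrophage markers. Their linear sum, on the log2 scale, ran from 8.46 to 13.46 with a median of 9.57. Hmox1 correlated with it at Pearson r = 0.86 (permutation p = 1e-05, the smallest the permutations can give, adjusted p = 0.0002) and Spearman rho = 0.65 (adjusted permutation p = 0.0002) over 48 mice. The r was 0.69 without the 2 mice farthest from the median, 0.73 without the Medium energy 14/29/57 mouse alone, 0.91 in mice numbered under 300 and 0.70 in those over 300. Hmox1 is known to be active in macrophages, and the cells that carried its RNA were not resolved here. Gclc and Gclm gave r = -0.44 (adjusted permutation p = 0.0356) and -0.46 (adjusted permutation p = 0.0226), with Spearman rho of -0.09 and -0.12 (adjusted permutation p = 0.632 and 0.618). These relations rest on 1 mouse: without it r was -0.01 and -0.10.

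**Figure D4:**
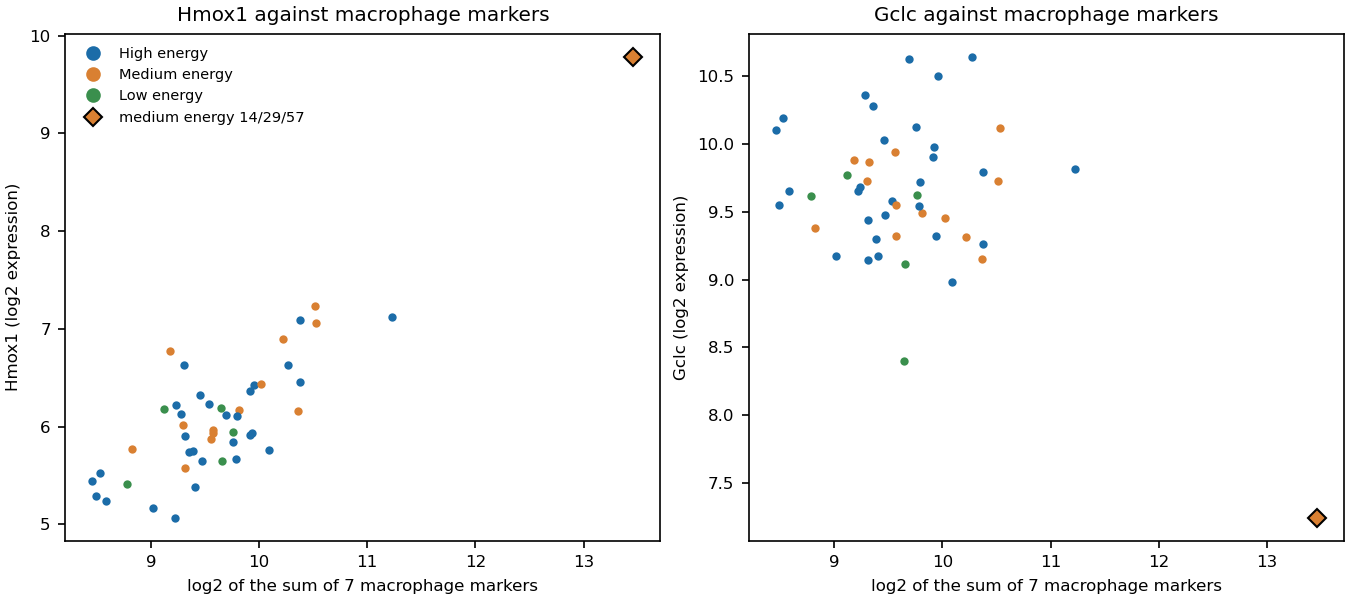
Log2 levels of Hmox1 (left) and Gclc (right) in 48 livers against the log2 of the summed levels of 7 macrophage markers, with points coloured by energy level. Hmox1 climbs with the sum in the other 47 mice as well (r = 0.73), while Gclc without the Medium energy 14/29/57 mouse (diamond) has no slope (r = -0.01).

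Most pairs of the 10 genes varied in the same direction across mice. Of their 45 pairs, 38 had a positive Pearson r over 48 mice, with a median of 0.25, and 43 were positive within the 20 combinations, with a median of 0.34. The subunits Gclc and Gclm had r = 0.84, or 0.69 within combinations. Gstm1 and Gstm3, whose near-identical family members can share probe signal, had 0.70, or 0.74 within combinations. All pairs share arrays and the width of their distributions, so these values are a description without a test.

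The genes most like each member were named by the highest Pearson r over the 48 mice, among the genes tested. For Gclc these were Aox1, an aldehyde oxidase (0.87), and Gclm (0.84), and Aox1 was next for Gclm as well (0.84). For Nqo1 they were Mgst3, a microsomal glutathione transferase (0.79), and Acadl (0.75), and for Srxn1 Sqstm1, the autophagy adaptor p62 that binds KEAP1 (0.73), and Samd4 (0.69). Hmox1 was most like Spi1, the myeloid factor PU.1 (0.88), and Itgb2, a leukocyte integrin (0.88). Gsta4 was nearest to the mitochondrial genes Mrps31 and Pmpcb (0.74 each), and Txnrd1 to the proteasome gene Psmd2 (0.79) and Srp68 (0.76). Gstm1 was nearest to Gna11 (0.77) and Bag3 (0.76), Gstm3 to Ect2 (0.71) and Dusp8 (0.70), and Gss to Slc25a33 and Psph (0.69 each). Without the Medium energy 14/29/57 mouse the r of Gclc with Aox1 was 0.79 and that of Hmox1 with Spi1 0.73.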

How the data were processed

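The authors labelled total RNA of 48 livers with biotin, hybridized it to Affymetrix arrays and deposited 1 value for each of 41345 probe sets, read here as log2 expression from its range of -0.51 to 13.42. The unit, background correction and normalization are not given in the sources used here. The deposited values were used unchanged. Arrays give no counts, so their number limits the precision. Cages gave 1 mouse each, per the series design, so arrays are separate animals.

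Gene names came from the platform annotation: 23521 probe sets had 1 symbol, 1814 several and 16010 none, and the last groups were left out. A gene was its probe set with the highest mean, tested if above the 30th percentile of probe set means. All 48 mice entered a limma model (version 3.58.1, lmFit and eBayes with trend, R 4.3.3) of protein share, carbohydrate minus fat, and energy level. The 5% against 14% contrast used protein as a factor, and the 60/20/20 contrast 1 mean for each combination. All tests were two-sided, and p-values were adjusted by Benjamini-Hochberg over 16926 genes. The models were also run on simulated data with independent noise for each gene. Those data had no array-wide spread tied to protein and no outlying mouse, so they cannot test how the models handle these features. Correlations used 100000 permutations, with adjustment over 20 relations. Mouse numbers under and over 300 in the labels gave subsets.

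The 10 genes and the lists were chosen with earlier results of these data known. Named besides the 10 were up to 4 genes of each list with the smallest p for protein and the 2 genes most like each member. Alternatives were array-wide spread, normalization, filter, probe sets, array weights, a random block for diet, the scale and replacement of protein, sex-linked values, subsets of mice and each mouse left out.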

Additional observations from a re-analysis of the deposited data

Results flagged for a closer look

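Within the 3 diet combinations of 4 mice, 2 of 30 sets of member values held 1 mouse far from the others by Dixon's criterion, which chance flags in about 1 of 20 sets. Gstm1 was 8.34 in 1 of the 4 mice on High energy 5/75/20, and the nearest of the others had 7.65. Gstm3 was 8.05 in 1 of the 4 mice on High energy 14/29/57, and the nearest had 6.88. Without either mouse none of the 10 genes was called for the protein share.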

How the results depend on the processing

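The count of all genes called for the protein slope, 1187, was 113 with array-wide spread (the interquartile range) in the model, 4301 with array weights, 3652 on log2 protein, 719 with protein in place of fat, 263 with protein in place of carbohydrate, 630 with the diet combination as a random block, 237 and 5 in mice numbered under and over 300, and 334 without the 12 arrays of the smallest interquartile range (chosen after seeing the data). Leaving out single mice gave 588 to 3004. It was 2147, 3004 and 620 when High energy 60/20/20 mouse 1, 2 or 3 was left out, 588 without the High energy 42/29/29 mouse, 726 and 743 without mouse 1 or 2 on High energy 5/20/75, and 784, 778 and 758 without mouse 1, 3 or 4 on High energy 5/48/48.

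Members called for protein, 0 in the model of the text, were 2 with array weights (Gclm, adjusted p = 0.0272, and Gsta4, adjusted p = 0.0354, against 25.4% of all genes), 1 in High energy diets (Gclc), 1 on log2 protein (Gsta4), 1 without the Medium energy 14/29/57 mouse (Gclm), and 0 to 1 without single mice. For 5% against 14% protein, 63 genes became 126 without that mouse (42 to 126 over single mice), and 3006 or 134 against the mean of the higher shares without or with the interquartile range, with 2 and 0 members. High against Medium energy gave 2 genes with sex-linked values as a term and 0 to 3 without single mice; Low against High gave 0 to 5, and carbohydrate for fat 0 to 0.

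Some uncalled members changed sign. For the protein slope these were Gstm1 (0.00021), Txnrd1 (0.011), Hmox1 (0.017) and the list gene Nfe2l1 (0.0063) with the interquartile range; Hmox1 with array weights (0.0059) and protein in place of carbohydrate (0.016); Gstm3 (0.0023) and Txnrd1 (0.00061) with protein in place of fat; Txnrd1 without 12 arrays (0.0036); and Nqo1 in mice over 300 (0.087). Without the Medium energy 14/29/57 mouse Gclm had -0.0028 for carbohydrate and, for High against Medium energy, Nqo1 -0.014 and Gstm1 -0.087; Gstm1 had -0.00034 with centred arrays. For 5% against 14%, Hmox1 had -0.089 with the interquartile range, and Txnrd1 -0.0059 against the higher shares with it. For Low against High energy Txnrd1 had 0.092 with the interquartile range and 0.016 after quantile normalization, and Srxn1 0.099 after the latter.

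Over single mice left out, the ranges that crossed 0 were, for protein, Nqo1 -0.080 to 0.015; for carbohydrate, Gclc -0.065 to 0.0092, Gclm -0.0028 to 0.027 and Srxn1 -0.014 to 0.036; for High against Medium, Nqo1 -0.014 to 0.24, Gstm1 -0.087 to 0.088 and Srxn1 -0.076 to 0.090; for 5% against 14%, Hmox1 -0.021 to 0.39; and for Low against High, Gstm1 -0.018 to 0.54, Txnrd1 -0.23 to 0.12, Srxn1 -0.34 to 0.062 and Hmox1 -0.42 to 0.016. The causes were not tested. No paired analysis was possible because the arrays are separate animals. A slope of a member is limited by 48 arrays and by combinations of 1 to 4 mice.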
